A study of Mus musculus with 12 samples.

Results

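*Nell1*, its paralog *Nell2* and 4 genes reported to encode cell surface receptors or binding partners of Nell proteins (*Cntnap4*, *Robo3*, *Atraid* and *Itgb1*) were examined in hippocampi of mice with 1 functional copy of *Nell1* and of their WT littermates. The members were chosen by gene symbol, each symbol was matched to 1 Entrez gene ID, and these 6 genes are among 27179 IDs in the count table. Hippocampal RNA came from 12 mice at an age of 3 months, 6 of genotype *Nell-1+/6R* and 6 WT, each genotype being represented by 3 females and 3 males. The *Nell-1+/6R* mice are heterozygous for 6R, an ENU-induced loss-of-function allele of the germline, and the labels name no treatment for any mouse. WT in this report follows the genotype field and the short sample names, although the longer titles of the WT mice also contain the abbreviation for heterozygous. Reads from both alleles are summed in the counts, so RNA of the 6R allele could not be separated from that of the other copy.

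Nell-1 and Nell-2 are secreted glycoproteins built from a laminin G-like domain, von Willebrand factor C domains and EGF-like repeats. Nell-1 is best known as an inducer of bone and cartilage formation, and Nell-2 as a neuronal protein that guides growing axons. Cntnap4 is a transmembrane member of the neurexin superfamily found on interneurons, Robo3 is a guidance receptor of commissural axons that binds Nell-2, Atraid is a membrane protein that binds Nell-1 in bone-forming cells, and *Itgb1* encodes integrin beta1, which pairs with many alpha subunits in adhesion to the matrix.

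Because *Nell1* and *Nell2* are paralogs, the sequence they share decides whether a single read of 50 bases could be assigned to the wrong gene. No stretch of 50 bases was common to their annotated transcripts (GENCODE M21, GRCm38). The longest identical run was 15 bases, in exon 16 of both transcripts, at chr7:50826334-50826348 on the plus strand for *Nell1* and chr15:95241589-95241603 on the minus strand for *Nell2*. Other windows were not compared with mismatches allowed. The run is shown here with the coding bases around it, 5′ to 3′ on the strand of each gene, the shared run in capitals.
Nell1: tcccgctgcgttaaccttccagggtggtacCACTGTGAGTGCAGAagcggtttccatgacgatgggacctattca
Nell2: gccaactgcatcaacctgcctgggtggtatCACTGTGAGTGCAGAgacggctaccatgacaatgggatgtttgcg
In these windows of 75 bases, 57 were identical. Aligned end to end, the coding sequences of 2430 bases (*Nell1*) and 2418 bases (*Nell2*) had the same base at 61.4% of 2385 aligned positions. Thus, a read of *Nell2*, the far more abundant transcript, has no perfect match in *Nell1*. Beyond the paralog, 21 of 7302 stretches of *Nell1* also occur in *Cables2*, and none of those of *Nell2*, *Robo3* or *Itgb1* occur in another gene. *Atraid* shares 12.8% of its stretches with *Slc5a6* on the opposite strand, and *Cntnap4* shares 7.29% with the antisense gene *Gm45904*. The sources used here do not say whether reads were counted by strand, so part of the *Atraid* and *Cntnap4* counts could belong to these neighbours.

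Each library held between 10834905 and 16016317 counts, and all 6 members passed the filter on low counts (17937 genes tested). Levels are given as CPM, counts relative to the library total scaled with TMM factors, and the difference between genotypes as a log2 fold change (log2FC, *Nell-1+/6R* minus WT) with its standard error (SE) from edgeR's quasi-likelihood test with sex in the model, with p adjusted over all genes tested. At an adjusted p under 0.05, 7 genes (0.039%) differed between the genotypes, 5 of them (0.0279%) lower in the *Nell-1+/6R* mice. Libraries did not hold pure hippocampus: choroid plexus markers (*Ttr*, *Kl*, *Folr1*, *Clic6*, *Otx2*) summed to 39.2 to 5051 CPM, and female WT replicate 1, male WT replicate 3 and female *Nell-1+/6R* replicate 1 were each above 2000 CPM. The markers of hippocampal principal neurons summed to 2555 to 2920 CPM in WT and 2575 to 3324 CPM in the *Nell-1+/6R* mice. All 7 were detected, 3 of them lower and 4 higher, with 3 at an unadjusted p under 0.05, against 3.26% of all genes (edgeR). The leptomeningeal fibroblast markers were lower in the *Nell-1+/6R* mice for 9 of 9 genes, against 50.3% of all genes. Of the 9 markers, 7 had an unadjusted p under 0.05, against 3.26% of all genes (edgeR). Their summed level was 116 to 376 CPM in WT and 68.9 to 364 CPM in the *Nell-1+/6R* mice. Hence fewer cells of a type and less RNA per cell cannot be told apart in these bulk samples.

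Of the 6 members, *Nell1* was the only one that passed the test, with lower levels in all 6 *Nell-1+/6R* mice than in any WT mouse. One member of 6 was called at an adjusted p under 0.05, against 0.039% of all genes, and the same single member had an unadjusted p under 0.05, against 3.26% of all genes. *Nell1* was also the only member whose genotype groups did not overlap, as was the case for 0.151% of all genes. Across the 6 members the median log2FC was -0.06, beside -0.00 for all genes tested.

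*Nell1* (Entrez ID 338352) spans 887940 bases of chromosome 7 from 49975350 to 50863289 on the plus strand (GRCm38). Its counts were 635, 570 and 526 in the female WT mice and 386, 403 and 348 in the male WT mice. In the *Nell-1+/6R* mice they were 271, 255 and 249 in females and 303, 240 and 217 in males. Scaled for depth, the WT mice ran from 30.6 CPM (male replicate 3) through a median of 35.8 to 44.0 CPM (female replicate 2), and the *Nell-1+/6R* mice from 17.2 through 19.1 to 20.8 CPM. Every *Nell-1+/6R* mouse was therefore below every WT mouse. *Nell1* averaged 36.5 ± 4.55 CPM across WT and 19.1 ± 1.77 CPM across *Nell-1+/6R* mice (SD, n = 6 each), a log2FC of -0.93 (SE 0.0803, 95% interval -1.11 to -0.76, adjusted p = 0.00015, edgeR). On the linear scale, *Nell1* RNA in the *Nell-1+/6R* mice was 52.4% of the WT level, with a 95% interval of 46.5% to 59.0%. With each mouse left out in turn, the adjusted p stayed between 0.000217 and 0.00103. Without the 3 libraries rich in choroid plexus, the log2FC was -0.98 (adjusted p = 0.00359, edgeR, 9 mice).

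The lower level of *Nell1* was found in each sex. The female WT mice had 39.6 ± 4.12 CPM and the female *Nell-1+/6R* mice 19.7 ± 1.82 CPM (SD, n = 3 each), a log2FC of -1.004 (SE 0.114, adjusted p = 0.00788, edgeR, 4-group model). In males the levels were 33.5 ± 2.66 and 18.4 ± 1.80 CPM (SD, n = 3 each), a log2FC of -0.86 (SE 0.116, adjusted p = 0.0388, edgeR). Fitted on the 6 mice of 1 sex alone, the log2FC was -1.0002 in females (adjusted p = 0.115, edgeR) and -0.85 in males (adjusted p = 0.262, edgeR), so neither call was kept. The *Nell1* levels of the genotypes did not overlap within either sex, as was the case for 6% of all genes in females and 10.4% in males. The male call is the less firm of the 2: leaving out any of 9 mice raised its adjusted p to between 0.0518 and 0.281, and that of the females rose to 0.0571 without WT replicate 1 of that sex and to 0.054 without *Nell-1+/6R* replicate 2 (edgeR). The effect in males minus that in females was 0.14 (95% interval -0.21 to 0.49, adjusted p = 0.987, edgeR), so a difference between the sexes within that interval was not detectable with 3 mice per group.
No gene passed the adjusted threshold for this interaction (0%), and 554 genes (3.09%) had an unadjusted p under 0.05 in edgeR, none of them a member. *Nell1* was lower in males than in females by 0.17 on the log2 scale with genotype in the model (log2 difference -0.17, 95% interval -0.34 to 0.00, adjusted p = 0.868, edgeR). No member passed for sex, where 6 genes (0.0335%) had an adjusted p under 0.05 and 847 (4.72%) an unadjusted p under 0.05.

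*Nell2* (Entrez ID 54003; chromosome 15, 95219440 to 95528796, minus strand), the other ligand, did not differ detectably. Its counts were 9827 to 14059 in WT and 11488 to 14370 in the *Nell-1+/6R* mice, the deepest of the members. The WT mice ran from 844 through a median of 891 to 959 CPM, and the *Nell-1+/6R* mice from 881 through 916 to 1062 CPM. The groups overlapped between 881 and 959 CPM, and only female *Nell-1+/6R* replicate 2 (1062 CPM) and male *Nell-1+/6R* replicate 1 (972 CPM) lay above all WT mice. *Nell2* was 897 ± 51.7 and 943 ± 65.4 CPM (SD, n = 6 each), a log2FC of 0.07 (95% interval -0.05 to 0.19, adjusted p = 1.00, edgeR). The interval corresponds to 96.6% to 114% of the WT level, so a larger loss or gain of *Nell2* RNA lies outside it. The markers of principal neurons, summed per mouse, were highest in the same female *Nell-1+/6R* replicate 2 (3324 CPM), and their part in the *Nell2* level was not tested.

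**Figure D1:**
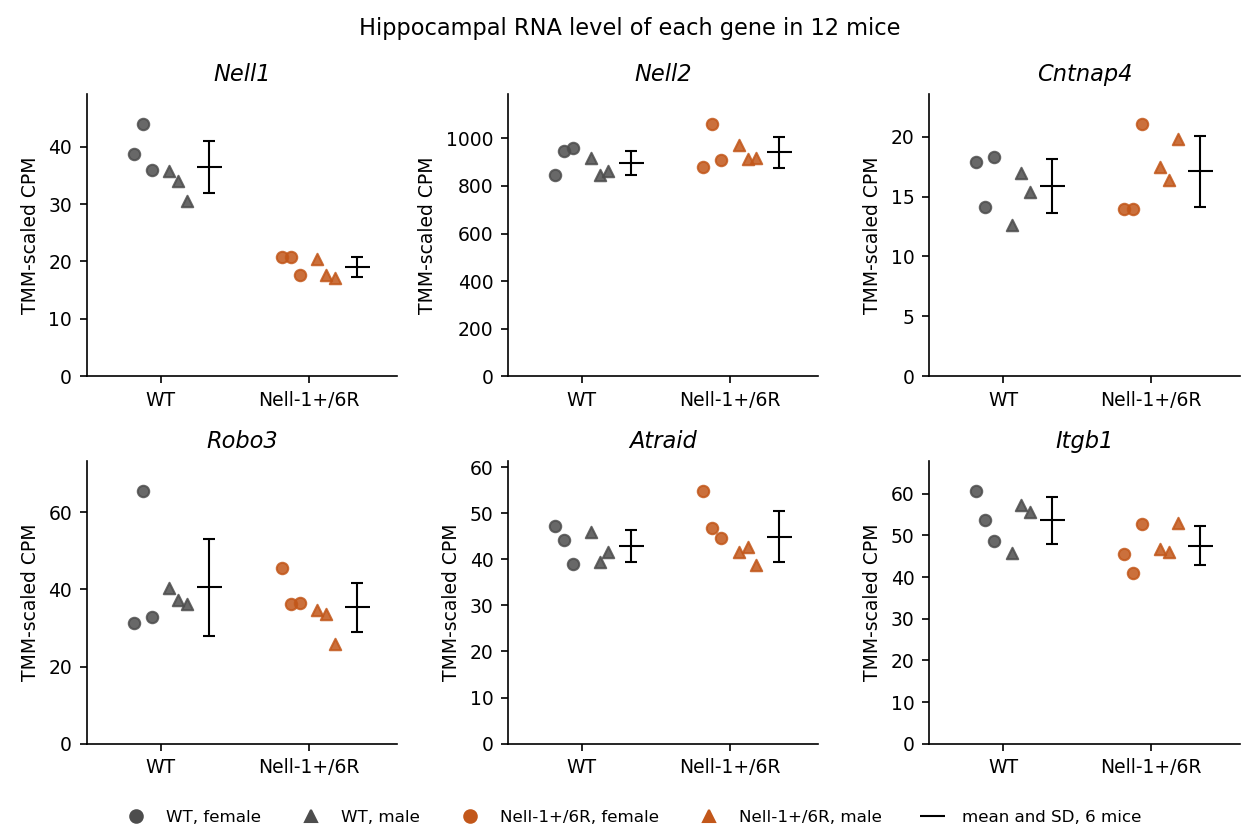
RNA level of the 6 genes in each of the 12 mice, in TMM-scaled CPM with axes from 0, circles for females and triangles for males, black bars for the mean and SD of 6 mice. The *Nell-1+/6R* mice lie at 17.2 to 20.8 CPM for *Nell1*, all below the WT mice at 30.6 to 44.0 CPM, while the genotypes overlap for the other 5 genes.

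The balance of the 2 ligands was read within each mouse, where no scaling for depth is needed. In WT mice there were 35.4 to 46.4 *Nell1* counts per 1000 *Nell2* counts, and in the *Nell-1+/6R* mice 18.7 to 23.6, without overlap. The means were 40.7 ± 4.52 and 20.3 ± 1.81 (SD, n = 6 each), a log2 difference of -1.004 (exact permutation test over 924 splits, two-sided, p = 0.00216, the smallest that 6 against 6 can give). Within 1 sex, 3 mice against 3 cannot go below an exact two-sided p of 0.1, and the log2 difference was -1.05 in females and -0.96 in males. Per kb of exon, *Nell2* RNA exceeded *Nell1* RNA 38.6 ± 4.19-fold in WT and 77.3 ± 6.33-fold in the *Nell-1+/6R* mice (SD, n = 6 each).

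*Cntnap4* (Entrez ID 170571; chromosome 8, 112569798 to 112882707, plus strand), a reported cell surface receptor of Nell-1, had the fewest counts of the members, 136 to 298 in a mouse. WT mice ran from 12.6 through a median of 16.2 to 18.4 CPM and *Nell-1+/6R* mice from 13.9 through 16.9 to 21.1 CPM, overlapping over most of the range. *Cntnap4* was 15.9 ± 2.26 and 17.1 ± 2.96 CPM (SD, n = 6 each), a log2FC of 0.10 (95% interval -0.17 to 0.38, adjusted p = 1.00, edgeR). It was 0.022 to 0.17 with 1 mouse left out, lowest without female *Nell-1+/6R* replicate 3, and 0.23 with the leptomeningeal marker score in the model. At this depth changes to between 89.1% and 130% of the WT level lie within the interval. The log2FC was -0.04 in females and 0.25 in males, and their difference of 0.29 had an interval of -0.25 to 0.83 (adjusted p = 0.987, edgeR). The markers of GABAergic neurons, where *Cntnap4* is known to act, were higher in the *Nell-1+/6R* mice for 7 of 7 genes, while 50.3% of all genes were lower. Of the 7 markers, 2 had an unadjusted p under 0.05, against 3.26% of all genes (edgeR). The markers summed to 535 to 602 CPM in WT and 551 to 663 CPM in the *Nell-1+/6R* mice. Their part in the *Cntnap4* level was not tested.

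The fall of *Nell1* changed its standing relative to *Cntnap4*. Levels of different genes were compared as TPM, in which each count is divided by the length of the exons before scaling for depth. In WT mice *Nell1* exceeded *Cntnap4* by 1.69-fold to 2.69-fold, a mean of 2.03 ± 0.434 (SD, n = 6). With the 6R allele the ratio was 0.722 to 1.29, a mean of 0.998 ± 0.249 (SD, n = 6). The genotypes do not overlap in this ratio. *Cntnap4* was above *Nell1* in 3 of 6 *Nell-1+/6R* mice and in 0 of 6 WT mice.

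**Figure D2:**
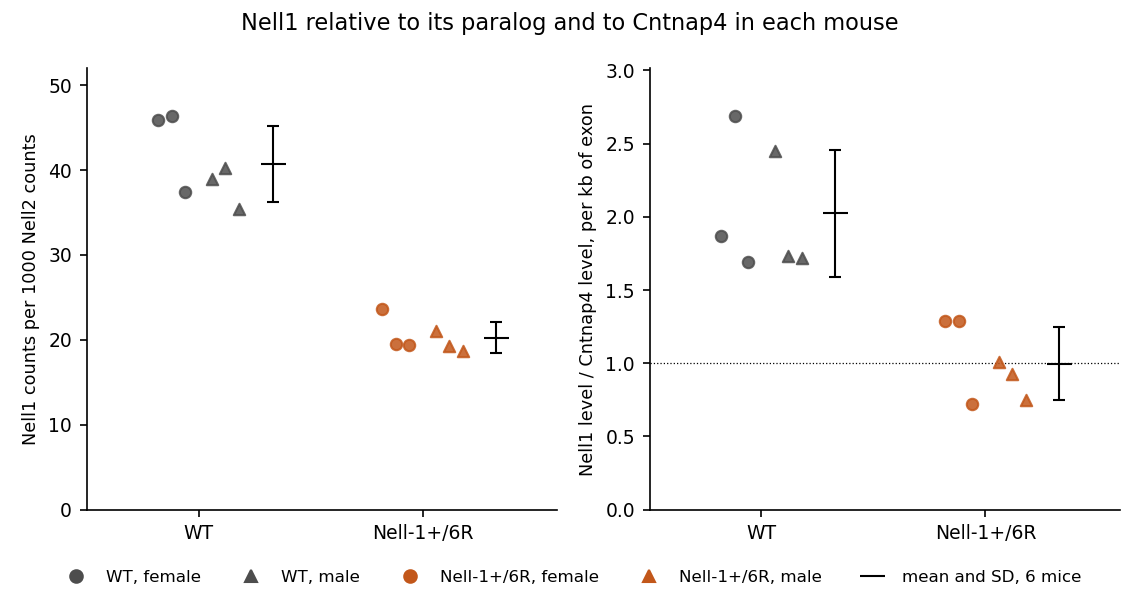
*Nell1* counts per 1000 *Nell2* counts (left) and the ratio of the *Nell1* to the *Cntnap4* level per kb of exon (right) in each mouse, with black bars for the mean and SD of 6 mice and a dotted line at equal levels. On the left, WT mice lie at 35.4 to 46.4 and *Nell-1+/6R* mice at 18.7 to 23.6, and on the right the *Nell-1+/6R* mice scatter around 1 while the WT mice lie at 1.69 or above.

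*Robo3* (Entrez ID 19649; chromosome 9, 37416045 to 37433436, minus strand), the axon guidance receptor that binds Nell-2, had the largest SD relative to its mean among the members. It was 31.1% of the mean in WT, where it includes the outlying library given below. In the *Nell-1+/6R* mice it was 17.8%, beside 17.3% for *Cntnap4*. The WT mice ran from 31.2 through a median of 36.8 to 65.5 CPM and the *Nell-1+/6R* mice from 26.0 through 35.4 to 45.6 CPM. One library, female WT replicate 2, stood apart at 65.5 CPM (848 counts), the next WT mouse being at 40.3 CPM. *Robo3* was 40.6 ± 12.6 CPM in WT and 35.4 ± 6.31 CPM in the *Nell-1+/6R* mice (SD, n = 6 each), a log2FC of -0.20 (95% interval -0.54 to 0.15, adjusted p = 1.00, edgeR). Without female WT replicate 2 it was -0.02, and the difference in females alone moved from -0.13 to 0.30. The males did not overlap, at 36.3 to 40.3 CPM in WT and 26.0 to 34.6 CPM in the *Nell-1+/6R* mice, a separation of 3 mice from 3 that 10.4% of all genes showed in males, and the log2FC of -0.27 (SE 0.235) did not pass (adjusted p = 1.00, edgeR). The markers of thalamus, a tissue next to the hippocampus, were lower in the *Nell-1+/6R* mice for 5 of 5 genes, against 50.3% of all genes. Of the 5 markers, 1 passed, against 0.039% of all genes (*Slc17a6*, a vesicular glutamate transporter, log2FC -1.23, adjusted p = 0.0035, edgeR). The markers summed to 52.4 to 90.5 CPM in WT and 44.3 to 63.6 CPM in the *Nell-1+/6R* mice. In female WT replicate 2 they were at 76.4 CPM, second to male WT replicate 3 at 90.5 CPM, and their part in the *Robo3* level was not tested.

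*Atraid* (Entrez ID 381629; chromosome 5, 31048640 to 31054633, plus strand) encodes a partner of Nell-1 described in bone-forming cells. Its levels were 39.0 to 47.2 CPM in WT, with a median of 42.8, and 38.7 to 54.7 CPM in the *Nell-1+/6R* mice, with a median of 43.7. The *Nell-1+/6R* range enclosed that of the WT mice. *Atraid* was 42.9 ± 3.41 and 44.9 ± 5.56 CPM (SD, n = 6 each), a log2FC of 0.06 (95% interval -0.10 to 0.22, adjusted p = 1.00, edgeR), so 93.2% to 117% of the WT level lies within the interval. The direction differed by sex, 0.16 in females and -0.05 in males, and the difference of -0.21 (95% interval -0.53 to 0.11) did not pass (adjusted p = 0.987, edgeR). *Slc5a6*, which overlaps 396 exon bases of *Atraid* on the opposite strand, totalled 1632 counts in WT and 1677 counts in the *Nell-1+/6R* mice.

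*Itgb1* (Entrez ID 16412; chromosome 8, 128685654 to 128733579, plus strand), the integrin beta1 subunit, was the member closest to the threshold after *Nell1*. The female WT mice were at 60.6, 53.7 and 48.6 CPM and the male WT mice at 45.7, 57.3 and 55.7 CPM. The *Nell-1+/6R* mice were at 45.6, 41.0 and 52.9 CPM in females and 46.9, 46.0 and 53.0 CPM in males. The groups overlapped, with male WT replicate 1 among the lower values and 2 *Nell-1+/6R* mice above 50 CPM. *Itgb1* was 53.6 ± 5.54 CPM in WT and 47.6 ± 4.65 CPM in the *Nell-1+/6R* mice (SD, n = 6 each), a log2FC of -0.17 (95% interval -0.35 to 0.01, unadjusted p = 0.0574, adjusted p = 1.00, edgeR).
No marker of mural cells, endothelium, oligodendrocytes, astrocytes or microglia passed at an adjusted p under 0.05, while 2 of 4 mural and 1 of 5 endothelial markers had an unadjusted p under 0.05 (edgeR), against 3.26% of all genes. The mural cell markers (*Rgs5*, *Pdgfrb*, *Acta2*, *Kcnj8*), lower in the *Nell-1+/6R* mice for 3 of 4 genes, summed to 57.2 to 85.8 CPM in WT and 46.1 to 65.7 CPM in the *Nell-1+/6R* mice. The endothelial markers, lower for 4 of 5 genes, summed to 119 to 144 and 113 to 149 CPM, with the highest sum in a *Nell-1+/6R* mouse. The median log2FC was -0.12 for the mural list, -0.07 for the endothelial, -0.13 for the oligodendrocyte and -0.03 for both the astrocyte and the microglia list. The 3 highest mural sums were in male WT replicate 2 (85.8 CPM, *Itgb1* at 57.3 CPM), female WT replicate 1 (85.2 and 60.6 CPM) and female WT replicate 2 (71.8 and 53.7 CPM). The 3 lowest were in male *Nell-1+/6R* replicate 1 (46.1 and 46.9 CPM), female *Nell-1+/6R* replicate 2 (49.3 and 41.0 CPM) and male *Nell-1+/6R* replicate 2 (49.6 and 46.0 CPM). The leptomeningeal sum was highest in female WT replicate 1 (376 CPM, *Itgb1* at 60.6 CPM), female *Nell-1+/6R* replicate 1 (364 and 45.6 CPM) and male WT replicate 3 (353 and 55.7 CPM). It was lowest in male *Nell-1+/6R* replicate 1 (68.9 and 46.9 CPM), female *Nell-1+/6R* replicate 2 (69.7 and 41.0 CPM) and male *Nell-1+/6R* replicate 3 (83.1 and 53.0 CPM). With the leptomeningeal marker score in the model, the log2FC of *Itgb1* was 0.01 in place of -0.17. The part of the vascular and leptomeningeal markers in the *Itgb1* level was not tested. Without the 3 libraries rich in choroid plexus, the log2FC was -0.10 for *Itgb1*, -0.36 for *Robo3*, 0.20 for *Cntnap4*, 0.07 for *Nell2* and 0.03 for *Atraid* (adjusted p = 1.00 each, edgeR, 9 mice).

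**Figure D3:**
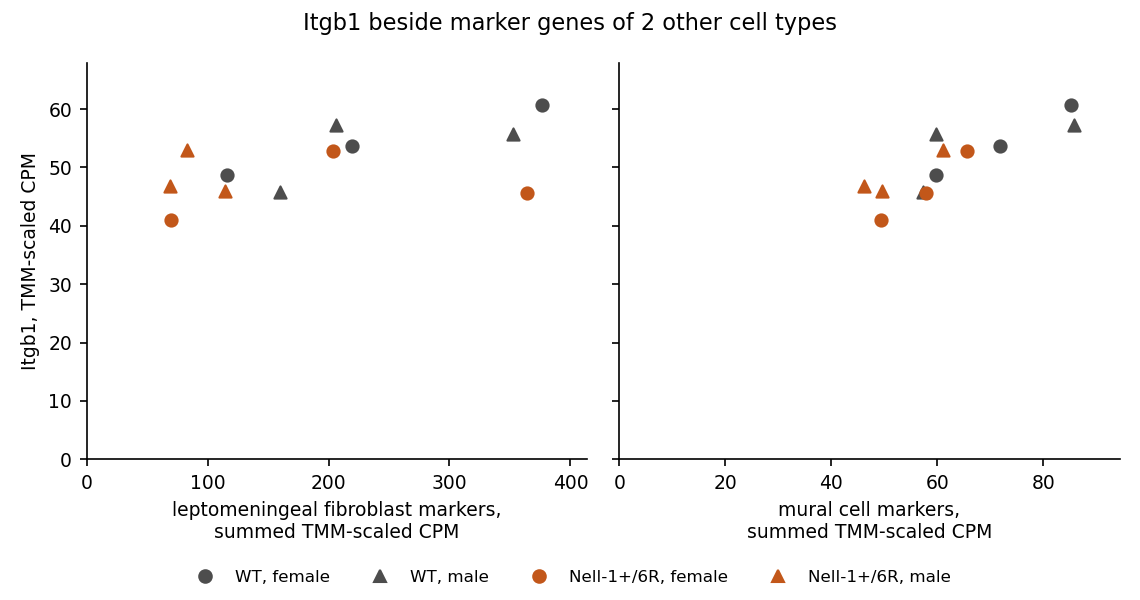
*Itgb1* level in each mouse (vertical axis, TMM-scaled CPM) against the summed level of leptomeningeal fibroblast markers (left) and mural cell markers (right), in CPM, circles for females and triangles for males. Female WT replicate 1, at 60.6 CPM of *Itgb1*, has the highest leptomeningeal sum (376 CPM) and the second highest mural sum (85.2 CPM), and female *Nell-1+/6R* replicate 1, at 45.6 CPM, the second highest leptomeningeal sum (364 CPM).

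The order of the members per kb of exon was the same in both genotypes except for *Nell1*. In WT mice *Nell2* led with 818 ± 48.1 TPM, above 99.5% of the 21610 genes with an exon length. *Atraid* followed with 87.7 ± 6.19, *Itgb1* with 56.0 ± 6.26, *Robo3* with 25.3 ± 8.17, *Nell1* with 21.4 ± 2.79 and *Cntnap4* with 10.8 ± 1.57 TPM (SD, n = 6 each). Neighbours in this order did not overlap among the WT mice, apart from *Robo3* and *Nell1*, which kept their order in 4 of 6 mice. In *Nell-1+/6R* mice *Nell1* (11.1 ± 0.927 TPM) came last, beside *Cntnap4* (11.5 ± 2.24 TPM), and these overlapped, while *Robo3* (21.8 ± 3.85 TPM) was now above both in every mouse. Exon lengths are those of all annotated isoforms merged, so a gene that uses a short isoform here is placed too low.

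**Figure D4:**
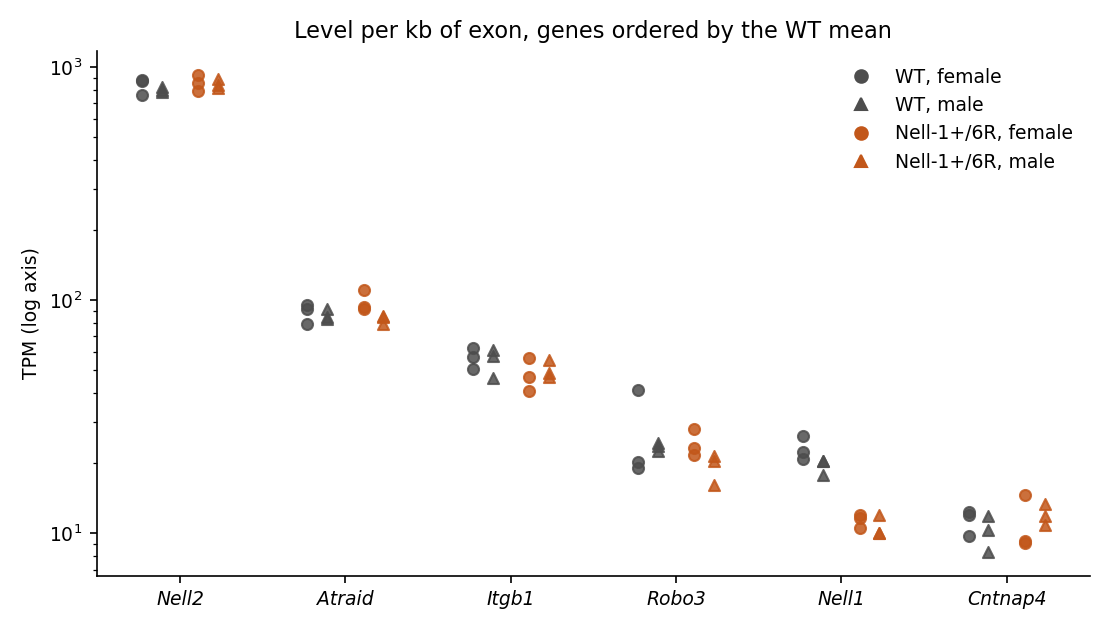
Level per kb of exon (TPM, log axis) of the 6 genes in each mouse, ordered by the WT mean, WT in grey and *Nell-1+/6R* in orange, circles for females and triangles for males. *Nell2* lies near 818 TPM, and *Nell1* moves from 21.4 TPM, beside *Robo3*, to 11.1 TPM, beside *Cntnap4*.

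The other genes of the receptor families put the members in context. Among the 7 *Cntnap* genes, *Cntnap4* had rank 3 in WT mice with 10.8 TPM, behind *Cntnap1* (298 ± 14.6 TPM, a protein of the paranodal junction) and *Cntnap2* (25.0 ± 3.43 TPM). Among the 4 *Robo* genes, *Robo3* had the highest mean, 25.3 TPM, but overlapped *Robo2* (17.1 ± 3.00 TPM), whose highest mouse was at 21.5 TPM while the lowest *Robo3* mouse was at 19.2 TPM. The *Robo3* mean includes female WT replicate 2 at 41.4 TPM. Before division by exon length, the WT mean of *Robo2* (68.1 CPM) was above that of *Robo3* (40.6 CPM), so the rank rests on the merged exon lengths. *Itgb1* was second among 8 beta subunits, below *Itgb5* (77.0 ± 4.86 TPM) in mean, and *Itga7* (22.5 ± 4.14 TPM) and *Itga3* (19.0 ± 1.79 TPM) led the alpha subunits that can pair with it.

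No gene of the related families or pathways passed at an adjusted p under 0.05 in edgeR, and 1 of the 74 listed genes that were tested had an unadjusted p under 0.05, against 3.26% of all genes. Of 12 contactins and contactin-associated proteins, 7 were lower and 5 higher, with a median log2FC of -0.05, a range of -0.46 (*Cntnap3*) to 0.30 (*Cntnap5c*) and 0 at an unadjusted p under 0.05. The value of *Cntnap3* was -0.040 without female WT replicate 1 and -0.87 without male *Nell-1+/6R* replicate 3. Of 12 genes of Robo, Slit and netrin guidance, 2 were lower and 10 higher (median 0.03, from -0.14 for *Robo4*, the endothelial member, to 0.34 for *Slit2*, a ligand of Robo receptors), also with 0 at that threshold. For *Slit2* the value was 0.13 in females alone and 0.57 in males alone, and neither passed. The osteochondrogenic regulators tied to Nell-1, such as *Runx2* and *Sp7*, had 6 of 9 tested genes lower and 3 higher (median -0.03), the extremes being *Ptch1*, the hedgehog receptor (-0.12), and its ligand *Ihh* (0.36).

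Among integrin genes, 10 of the 11 tested alpha subunits that pair with beta1 were lower in the *Nell-1+/6R* mice and 1 was higher, with a median log2FC of -0.12 beside -0.00 for all genes. *Itga5*, which forms the fibronectin receptor with beta1, was the one at an unadjusted p under 0.05. It ran from 2.99 to 4.95 CPM in WT and from 1.19 to 3.68 CPM in the *Nell-1+/6R* mice, so the groups overlapped. *Itga5* was 3.82 ± 0.838 and 2.21 ± 0.883 CPM (SD, n = 6 each), a log2FC of -0.80 (SE 0.218, unadjusted p = 0.00258, adjusted p = 1.00, edgeR), from 303 and 179 counts over the groups. With the leptomeningeal marker score in the model, the log2FC of *Itga5* was -0.50 (SE 0.306, adjusted p = 1.00, edgeR), and 0 of the alpha subunits then had an unadjusted p under 0.05. Of the 6 other beta subunits tested, 4 were lower and 2 higher (median -0.01, from -0.52 for *Itgb7* to 0.19 for *Itgb8*, both under 2 CPM). Of 12 adaptors and kinases that act at integrin tails, 9 were lower and 3 higher (median -0.04), with *Fermt1* (-0.26) and *Vcl* (-0.12), the kindlin-1 and vinculin genes, at the low end. None of these beta subunits or adaptors had an unadjusted p under 0.05.

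Secreted relatives of the Nell proteins with thrombospondin or VWC domains showed 7 of 12 genes lower and 5 higher, with a median of -0.09. The largest differences were in *Thbs1*, thrombospondin-1 (-0.62, 95% interval -1.29 to 0.05, adjusted p = 1.00, edgeR), and *Kcp* (-0.41), a low gene with 43 and 32 counts over the groups. The value of *Thbs1* was 0.13 with the leptomeningeal marker score in the model, -0.062 in females alone and -1.23 in males alone, none of which passed. *Ros1*, the receptor kinase of the Nell-2 pathway in the epididymis, totalled 1 count in WT and 2 counts in the *Nell-1+/6R* mice, and *Ovch2*, a protease of the same pathway, had 0 in all 12 mice, so neither could be tested.

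**Figure D5:**
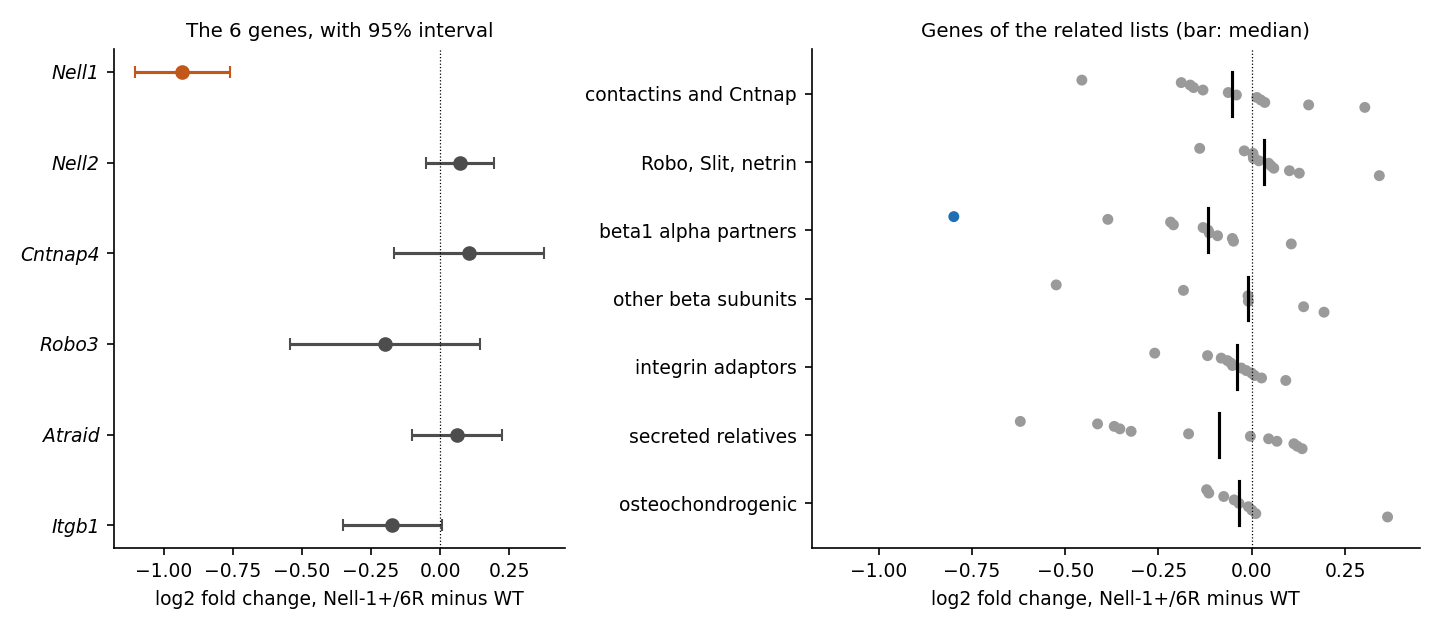
Log2 fold change (log2FC) of *Nell-1+/6R* against WT mice for the 6 genes with 95% intervals (left) and for the genes of 7 related lists (right, black bars for medians, blue for an unadjusted p under 0.05). *Nell1* at -0.93 is the only member whose interval excludes 0, and *Itga5* at -0.80 is the only listed gene in blue.

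Genes whose levels followed each member most closely over the 12 mice were found with Pearson's r of log2 CPM after removing the means of the 4 groups, among 14385 genes with a mean CPM of at least 1. These values describe 12 libraries that differ in depth and in the tissue markers given above, and no test was made. Among the genes closest to *Nell1* were *Tle2* (0.95) and *Lrrc73* (0.95), neither of which differed detectably between the genotypes, and *Nell2* was followed most closely by *Mboat7* (0.96), *Fam155a* (0.95) and the neuronal gene *Chn1* (0.95). *Cntnap4* was nearest to *Zscan26*, *Srpk2* (0.99 each) and *Cab39* (0.98), *Robo3* to *Plekha2*, *Cpne9* (0.97 each) and *Sdf4* (0.96), and *Atraid* to *Eral1*, *S100a1* and *Tmed3* (0.97 each). *Itgb1* was nearest to *F8* (0.97), *Phldb2* (0.96) and *Ddr2* (0.95). *F8*, the clotting factor VIII gene of endothelium, and *Ddr2*, a collagen receptor of fibroblasts, are genes of non-neuronal cells. With the levels as they are, *Nell1* was most like *Ipw* (0.94), a noncoding RNA that also differed between the genotypes (log2FC -1.71, adjusted p = 0.000701, edgeR), then *Myo7a* (0.88) and *Rtel1* (0.85).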

How the data were processed

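RNA of 12 hippocampi was sequenced as single reads of 50 bases on an Illumina HiSeq instrument. The authors aligned the reads to mm10 with HISAT2 (2.1.0) and counted them with featureCounts (2.0.1 in the submitters' processing notes, another version in the methods), and deposited raw counts per Entrez ID, not normalized and not pooled. All columns matched a mouse (0 left over). The sources used here do not give the strand setting or the treatment of multi-mapping reads.

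Of 27179 IDs, 25275 had a RefSeq symbol (GRCm38, the build mm10) and 21610 an exon length (GENCODE M21). Genes reaching a CPM of 0.2 in 2 or more mice entered the test, edgeR 4.0.16 (R 4.3.3, TMM, quasi-likelihood, sex and genotype, Benjamini-Hochberg adjustment). The effect by sex came from a 4-group model, and CPM uses TMM-scaled totals. The fit was tested on simulated data. Alternatives used limma 3.58.1, DESeq2 1.42.0, other factors, filters and mice. Figures used Python 3.11.15 with pandas 2.3.3 and matplotlib 3.10.9, and the alignment Biopython 1.88.

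The named genes are the members, listed genes with an unadjusted p under 0.05 (or the 2 of largest change in a list), and the 3 genes most like each member, 1 of which is not reported here. Members, lists and rules were chosen with earlier results of these data known. *Chn1*, *Cables2*, the family levels and overlapping genes were named from the annotation or as context. The samples are separate mice, and totals of 10834905 to 16016317 counts limit precision for low genes. *Nicol1* was not matched and is not analysed here.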

Additional observations from a re-analysis of the deposited data

Results flagged for a closer look

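*Robo3* in female WT replicate 2 (65.5 CPM) lay farther above the other WT mice than Dixon's criterion allows for 6 values: the gap to the next mouse was 0.734 of the range, above the 95% critical value. Of 14 groups of 6 mice examined (6 genes and the *Nell1* to *Nell2* ratio in each genotype), this was the only 1 past the criterion, and chance passes about 1 group in 20.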

How the results depend on the processing

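*Nell1* was lower in all 26 alternative fits, from -1.0002 to -0.85 on the log2 scale, and passed in all of them except females alone (-1.0002, adjusted p = 0.115, edgeR) and males alone (-0.85, adjusted p = 0.262, edgeR), where only 6 mice enter. With each mouse left out it ranged from -0.98 to -0.89. The *Nell1* to *Nell2* ratio was -1.05 in females alone and -0.96 in males alone, where the exact p cannot go below 0.1, and -1.05 in the 9 mice with little choroid plexus, an alternative chosen after seeing the data. Members called were 1 throughout, except 0 in females and 0 in males alone. Over all genes, 7 calls became 13 with DESeq2, 2 with the leptomeningeal score as covariate, 0 in females alone and 1 in males alone, and 6 to 8 with 1 mouse left out. The other members stayed uncalled in all fits. Their direction turned with the leptomeningeal score for *Nell2* (-0.050) and *Itgb1* (0.0054), in females alone for *Cntnap4* (-0.036) and in males alone for *Atraid* (-0.038). The cause of these shifts was not tested beyond the smaller number of mice.

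Same-numbered mice of the 2 genotypes did not deviate together throughout (correlations of 0.27, 0.02 and 0.38 in females, and 0.16, -0.39 and -0.05 in males). The highest correlations with a mouse of another number were -0.07, 0.37 and 0.20 in females, and 0.31, 0.44 and 0.07 in males. The same number thus gave the higher value for female replicates 1 and 3. So few correlations cannot decide whether the numbers pair the mice. With the replicate block, 8 genes were called and *Nell1* was at -0.93 (adjusted p = 4.91e-05, edgeR), and the exact p of the ratio was 0.0312, the smallest that 64 arrangements give.

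The number of genes at an unadjusted p under 0.05 was 0 to 3 in any related list over all alternatives. Among named list genes, all uncalled, signs turned for *Itgb8* with limma-voom with sex (-0.065), with genotype alone (-0.034) and with the replicate block (-0.041). With the leptomeningeal score they turned for *Cntnap3* (0.025), *Fermt1* (0.20), *Thbs1* (0.13) and *Ptch1* (0.088), in males alone for *Cntnap3* (0.40) and *Fermt1* (0.30), and in the 9 mice for *Fermt1* (0.10). With 1 mouse left out, the ranges that cross 0 are -0.42 to 0.61 for *Itgb8*, -0.41 to 0.14 for *Fermt1*, -0.63 to 0.049 for *Kcp* and -0.41 to 0.043 for *Ptch1*. For the effect in females they are -0.036 to 0.10 for *Nell2*, -0.27 to 0.062 for *Cntnap4* and -0.31 to 0.30 for *Robo3*, and for that in males -0.095 to 0.0051 for *Atraid*. For the interaction they are -0.011 to 0.13 for *Nell2*, -0.57 to 0.041 for *Robo3* and -0.0078 to 0.20 for *Itgb1*. For the sex difference they are -0.078 to 0.066 for *Cntnap4* and -0.029 to 0.071 for *Itgb1*, the latter also -0.0021 with upper-quartile factors.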
